A study of Mus musculus with 4 samples.

Results

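The genes described here are Stbd1 and 8 further genes of glycogen metabolism (Gys1, Gbe1, Ugp2, Pygb, Pygl, Gaa, Epm2a and Ppp1r3c), picked by symbol from a gene table of 15768 genes. All 9 were listed, and 6 passed the filter on low counts and entered the test (Stbd1, Gys1, Gbe1, Ugp2, Pygb and Gaa). Stbd1 led to the choice of the set because it was among the few genes called lower after Lkb1 siRNA. The values of these genes between the treatments are therefore given as a description. The cells were JoMa1.3, 1 mouse neural crest line labelled as neural crest stem cells. The Lkb1 siRNA group (genotype label Lkb1 KD) received a pool of siRNAs against Stk11, the gene of the kinase LKB1, and the control siRNA group (genotype label WT) received a non-targeting pool. Both pools were used at 60 nM and the cells were taken after 72 h, with 2 libraries in each group and 1 library of each group in batch 1 and in batch 2. All cultures shared a medium that mixed DMEM of 4500 mg/L glucose with F-12, supplements, EGF, FGF and chick embryo extract. The labels name jetPRIME or RNAiMax lipofectamine as transfection reagent and do not say which library received which. The series was made to find effectors downstream of Lkb1.

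Glycogen is a branched store of glucose. UGP2 makes UDP-glucose, glycogenin starts a chain on itself, glycogen synthase lengthens it and the branching enzyme adds branches. Phosphorylases release glucose units in the cytosol, while in the lysosome acid alpha-glucosidase (GAA) degrades glycogen that arrives through autophagy. STBD1 is a membrane-anchored protein with a starch-binding domain that binds glycogen and the autophagy protein GABARAPL1, and it is known as a receptor of this glycophagy. LKB1 activates AMPK, a kinase that binds glycogen through its beta subunits and phosphorylates glycogen synthase.

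Total gene counts were 17426719 and 18496820 for Lkb1 siRNA, and 18718435 and 19324675 for control siRNA. Stk11 was at 36.3 and 36.9 FPKM in the Lkb1 siRNA libraries, against 52.7 and 52.1 FPKM in the control siRNA libraries, so each library lay on the side of its label and the knockdown was partial. Of 12 neural crest markers 10 were in the gene table and 8 of them had a mean of at least 5 CPM (read counts scaled to library size after TMM normalization), among them the transcription factors Tfap2b, Pax3, Snai2, Sox9 and Twist1. Sox10 and Foxd3 were searched by symbol and were not in the gene table. Ednrb was at 0.0533 CPM or below in each library, and Ngfr was at 1.64 to 2.49 CPM. The summed CPM of these markers, most of it from Vim, was 2988 and 2979 in the Lkb1 siRNA libraries and 3579 and 3610 in the control siRNA libraries, and the part of this shift in the results below was not tested. The summed markers of skeletal muscle, hepatocytes and neurons were at 1.82 CPM or below in every library, and those of glia at 4.75 CPM or below.

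On the FPKM scale, which allows for transcript length, Gaa had the highest level of the 9 genes and the order below it was Pygb, Ugp2, Gys1, Stbd1, Gbe1, Ppp1r3c, Epm2a and Pygl. Gaa had 59.26 and 67.25 FPKM after Lkb1 siRNA, against 67.29 and 74.06 FPKM after control siRNA, and 88.4% of the genes tested had a lower mean. Pygb, at 28.9 to 35.0 FPKM, and Ugp2, at 29.8 to 31.4 FPKM, overlapped over the 4 libraries. Gys1 followed at 21.4 to 23.0 FPKM. Stbd1 and Gbe1 changed places between the groups. Stbd1 stood below Gbe1 in both Lkb1 siRNA libraries, with an FPKM ratio of 0.971 and 0.888, and above it in both control siRNA libraries, with a ratio of 1.54 and 1.81. The last 3 genes were at or near 0. Ppp1r3c had 0.18 to 0.28 FPKM, Epm2a was listed above 0 in 1 library with 0.07 FPKM, and Pygl in 1 library with 0.02 FPKM.

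**Figure D1:**
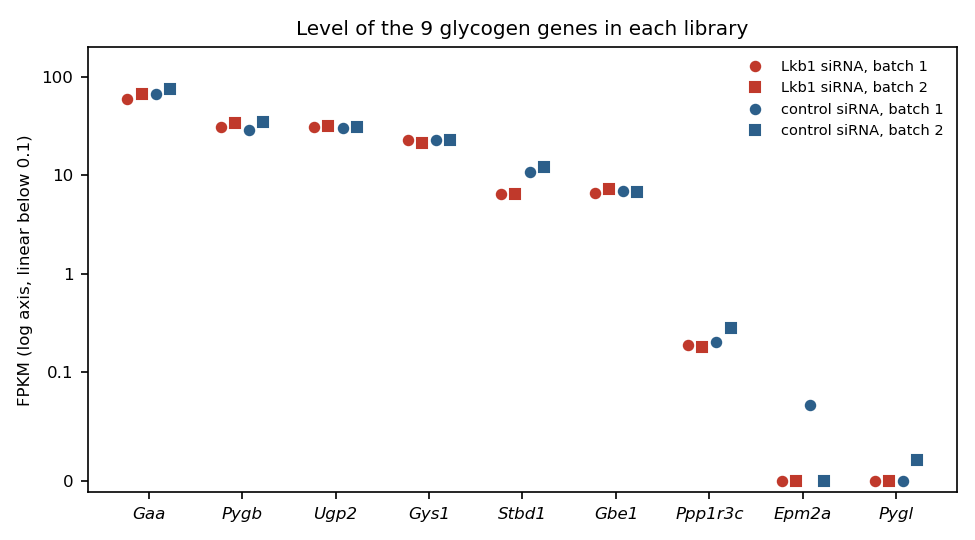
Level of each of the 9 glycogen genes in FPKM, on a log axis that is linear below 0.1, with 1 point for each of the 4 libraries and no error bars. Stbd1 is the gene whose red points (Lkb1 siRNA, 6.40 and 6.37 FPKM) lie clearly below its blue points (control siRNA, 10.7 and 12.1 FPKM).

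Stbd1 (gene ID 52331) had 188 and 199 counts in the Lkb1 siRNA libraries, against 338 and 395 counts in the control siRNA libraries. Scaled to the depth of each library these were 10.7 and 10.6 CPM after Lkb1 siRNA, against 18.45 and 20.5 CPM after control siRNA. Both Lkb1 siRNA libraries lay below both control siRNA libraries, and the Lkb1 siRNA libraries differed from each other less than the control siRNA libraries did. Counting error alone gave 95% Wilson intervals of 9.35 to 12.4 and 9.36 to 12.4 CPM after Lkb1 siRNA and of 16.2 to 20.1 and 18.5 to 22.6 after control siRNA, here taken from the library totals without TMM. The means were 10.7 ± 0.0637 CPM after Lkb1 siRNA and 19.5 ± 1.44 CPM after control siRNA (SD, n = 2 each), a log2 fold change of -0.87 (SE 0.119, 95% interval -1.14 to -0.60). The change was -45.3%, with an interval of -54.5 to -34.1%. Within batch 1 the log2 ratio was -0.79 and within batch 2 it was -0.95. The value that brought Stbd1 into view was its edgeR adjusted p of 0.046, and nothing is inferred from it here. Stbd1 did not pass with library size in place of TMM scaling (edgeR adjusted p = 0.0881), with a minimum mean of 5 CPM (0.0776) or with limma on log2(FPKM + 1) (0.163). In RNA from whole cultures, fewer cells that use a gene and less of its RNA in each cell cannot be told apart.

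The table listed 1 transcript of Stbd1, so its gene value is the value of that transcript. The 250 bases before the start of Stbd1 are shown because Stbd1 is the member that differed most between the treatments, and those of Gyg (glycogenin) and Gaa because they are the primer of glycogen and the lysosomal enzyme described below. The sequences are RefSeq's on GRCm38.p6, written 5′ to 3′ on the strand of the gene, with matches to the searched motifs in capitals. They lie at chr5:92602801-92603050 on the plus strand for Stbd1, at chr3:20155117-20155366 on the minus strand for Gyg and at chr11:119267713-119267962 on the plus strand for Gaa.
Stbd1: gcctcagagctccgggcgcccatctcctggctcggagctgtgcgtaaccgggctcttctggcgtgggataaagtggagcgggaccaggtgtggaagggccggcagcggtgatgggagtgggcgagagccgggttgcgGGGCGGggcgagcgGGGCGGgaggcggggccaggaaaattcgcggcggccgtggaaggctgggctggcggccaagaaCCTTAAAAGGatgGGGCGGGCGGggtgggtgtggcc
Gyg: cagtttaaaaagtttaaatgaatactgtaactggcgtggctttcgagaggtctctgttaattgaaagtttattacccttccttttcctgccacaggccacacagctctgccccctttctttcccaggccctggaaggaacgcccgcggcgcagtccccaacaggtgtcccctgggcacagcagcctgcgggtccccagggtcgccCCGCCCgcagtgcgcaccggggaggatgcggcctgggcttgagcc
Gaa: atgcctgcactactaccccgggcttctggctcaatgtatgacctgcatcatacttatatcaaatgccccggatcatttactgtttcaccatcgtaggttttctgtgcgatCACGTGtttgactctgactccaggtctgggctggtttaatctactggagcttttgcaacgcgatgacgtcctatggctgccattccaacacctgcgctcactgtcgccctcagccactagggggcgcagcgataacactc
The motifs searched on both strands were the GC box GGGCGG, bound by SP1-type factors, the E-box CACGTG, the cAMP response element TGACGTCA, the ATF4 composite element TGATGNAA, the TATA box TATAAA and the CArG box bound by SRF. The Stbd1 promoter held 4 GC boxes, of which the last pair overlap, and a CArG box that spans bases 36 to 27 before the start. A CArG box occurred in 1.47% and a GC box in 32.7% of the 32851 promoters of that length. The Stbd1 stretch was rich in G and C, at 71.2%, against a median of 52.4% over these promoters. This was not particular to Stbd1, as the other members ranged from 48.8% (Gbe1) to 73.6% (start site 2 of Ugp2). GC boxes also lay before Gys1, Pygl, Ugp2 and Epm2a, and not before Gbe1, Pygb, Gaa and Ppp1r3c. The Gyg stretch held 1 GC box. The Gaa stretch held an E-box at bases 140 to 135 before the start, a motif found in 6.02% of promoters, and no GC box. Among the other members only Ppp1r3c held an E-box (bases 104 to 99), and none of the 9 held the cAMP response element, the ATF4 composite element or the TATA box in these 250 bases. A match is a description of letters and not evidence of binding.

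A list of the wider pathway, with 41 genes in the table of which 9 are the members, covered synthesis, breakdown, the lysosomal route, phosphatase subunits, kinases, glucose entry and other users of UDP-glucose. Of these, 34 were tested, and 1 passed as lower (Stbd1) and 0 as higher in edgeR's quasi-likelihood test, where 0.0491% of all genes tested passed as lower and 0.0327% as higher. At an unadjusted p under 0.05, 6 were lower and 0 higher, against 5.53% and 5.61% of all genes tested. DESeq2 called 1 as lower and 0 as higher, against 0.254% and 0.147%. With the batch as a replicate block, 7 passed as lower (among them Stbd1, Gaa, Gabarapl1, Gyg, Pgm1 and Hk1) and 0 as higher, against 6.99% and 6.59% of all genes tested. The median log2 fold change was -0.027 over the 34 genes, -0.050 over the 6 members tested and 0.00049 over all genes tested. Of the 6 members tested, 4 were lower in both batches, as were 17 of the 34 genes and 33.4% of all genes tested. These shares used the contrast behind the choice of the set, and nothing is read from them. In 11 of the 34 genes both Lkb1 siRNA libraries lay below both control siRNA libraries and in 5 above them, while over all genes tested these shares were 21.4% and 21.2%.

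**Figure D2:**
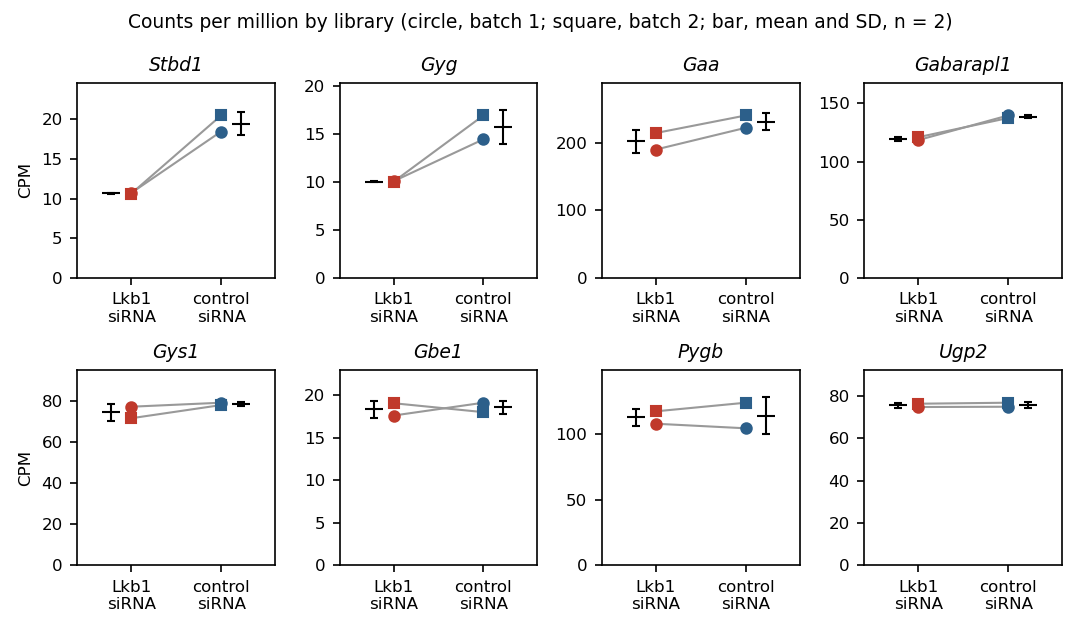
CPM of 8 glycogen genes in each library, with Lkb1 siRNA on the left and control siRNA on the right of each panel, a grey line joining the libraries of a batch, and a bar for the mean and SD of the 2 libraries. Stbd1 (mean 10.7 CPM after Lkb1 siRNA against 19.5 after control siRNA) and Gyg (10.1 after Lkb1 siRNA against 15.7 after control siRNA) separate by group, Gaa and Gabarapl1 do so by less, and the lines of Gys1, Gbe1, Pygb and Ugp2 are nearly flat.

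In the lysosomal route, Gaa (gene ID 14387), the enzyme lost in Pompe disease, had 190.5 and 215.0 CPM in the Lkb1 siRNA libraries, against 222.8 and 241.1 CPM in the control siRNA libraries. The groups did not overlap in CPM, but in FPKM Lkb1 siRNA in batch 2 (67.25) and control siRNA in batch 1 (67.29) were almost level. The log2 fold change was -0.19 (SE 0.0801, 95% interval -0.37 to -0.014), with a log2 ratio of -0.23 in batch 1 and -0.17 in batch 2. Gaa did not pass without the block (edgeR adjusted p = 0.411) and passed with it (0.00134). The FPKM ratio of Stbd1 to Gaa was 0.108 and 0.0947 in the Lkb1 siRNA libraries and 0.158 and 0.163 in the control siRNA libraries.

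Gabarapl1, the autophagy protein that STBD1 binds, had 118.4 and 120.9 CPM after Lkb1 siRNA and 139.6 and 137.4 CPM after control siRNA, and its groups were apart. It did not pass, at a log2 fold change of -0.21 with SE 0.0647 (edgeR adjusted p = 0.311), and passed with the replicate block (6.22e-04). Its span overlaps a long non-coding RNA gene in the RefSeq gene table (GRCm38). The related Gabarap was at a log2 fold change of -0.10 (SE 0.0888) and Gabarapl2 at 0.047 (SE 0.0707), and in both the libraries of the groups overlapped.

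Gaa and Ugp2 were the members with 2 listed transcripts. The first Gaa transcript (NM_008064) made up 83.9 and 81.2% of the Gaa FPKM in the Lkb1 siRNA libraries and 78.9 and 83.1% in the control siRNA libraries, so its share overlapped between the groups. The second (NM_001159324) had 9.56 and 12.6 FPKM after Lkb1 siRNA, against 14.2 and 12.5 FPKM after control siRNA. Of the Ugp2 transcripts, NM_001290634 made up 44.8 and 45.4% in the Lkb1 siRNA libraries and 48.9 and 47.4% in the control siRNA libraries, which did not overlap. The other, NM_139297, had 16.9 and 17.1 FPKM after Lkb1 siRNA and 15.2 and 16.4 FPKM after control siRNA. These shares rest on the authors' assignment of reads to transcripts, and their differences were not tested.

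**Figure D3:**
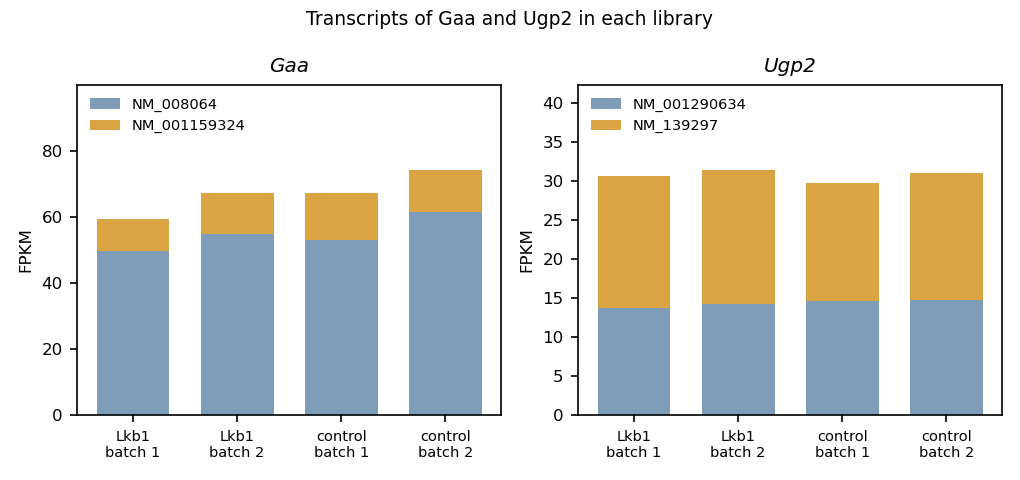
FPKM of the 2 transcripts of Gaa and of Ugp2, stacked for each library, with the Lkb1 siRNA libraries on the left and the control siRNA libraries on the right. In Gaa most of the bar belongs to NM_008064 in every library, and in Ugp2 the 2 transcripts are of similar size, with 13.7 to 14.7 FPKM for NM_001290634.

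Of the 7 tested genes of glycogen synthesis none passed in either direction, against 0.0491% lower and 0.0327% higher of all genes tested. At an unadjusted p under 0.05, 2 were lower and 0 higher, against 5.53% and 5.61%. With the replicate block Gyg and Pgm1 passed as lower and 0 as higher, against 6.99% and 6.59%. DESeq2 called none of the 7, against 0.254% lower and 0.147% higher. These shares also used the contrast behind the choice of the set, and nothing is read from them. Ugp2 (gene ID 216558), which makes UDP-glucose, had 74.8 and 76.4 CPM after Lkb1 siRNA and 74.9 and 76.8 CPM after control siRNA, with a log2 fold change of -0.0058 and a 95% interval of -0.16 to 0.15. Gys1 (gene ID 14936), the synthase of muscle and most other tissues, had 77.1 and 71.5 CPM after Lkb1 siRNA and 79.1 and 77.9 CPM after control siRNA. Its log2 fold change was -0.079 (95% interval -0.24 to 0.081), with the groups apart in CPM and overlapping in FPKM. Gys2, the liver synthase, reached at most 0.04 FPKM.

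Gbe1 (gene ID 74185), the branching enzyme, had 17.6 and 19.0 CPM after Lkb1 siRNA and 19.1 and 18.0 CPM after control siRNA, with a log2 fold change of -0.017 (95% interval -0.26 to 0.22) and opposite directions in the 2 batches (-0.12 and 0.082). The fitted values of Ugp2, Gbe1 and Pygb became positive with library size in place of TMM scaling (0.027, 0.016 and 0.011) and with limma on log2(FPKM + 1), so no direction is given for them. In the fit without the block the intervals reach about -16.4% for Gbe1 and -15.3% for Gys1. Decreases up to these sizes are therefore not excluded by that fit, with 2 libraries in a group. In the RefSeq gene table (GRCm38) the span of Gys1 overlaps Ruvbl2 and that of Ugp2 overlaps Vps54, and the labels do not say that reads were counted by strand. Reads of Gys1 and Ugp2 are to that extent uncertain.

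Gyg (gene ID 27357), glycogenin, the protein on which a glycogen chain begins, had 10.1 and 10.0 CPM in the Lkb1 siRNA libraries, against 14.5 and 16.95 CPM in the control siRNA libraries. Its groups did not overlap. The log2 fold change was -0.64 (SE 0.132, 95% interval -0.94 to -0.35), a change of -36.0%, with -0.52 in batch 1 and -0.76 in batch 2. Gyg did not pass (edgeR adjusted p = 0.134) and passed with the replicate block (7.62e-07). It also passed when control siRNA replicate 1 was left out, at -0.75 (edgeR adjusted p = 0.00504), and without another library it did not. The FPKM ratio of Gyg to Gys1 was 0.311 and 0.333 after Lkb1 siRNA and 0.433 and 0.515 after control siRNA. Almost all of the Gyg FPKM, 93.6% or more in each library, came from 1 of its 2 listed transcripts.

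The phosphoglucomutase Pgm1, which interconverts glucose 1-phosphate and glucose 6-phosphate, had 38.3 and 37.9 CPM after Lkb1 siRNA and 46.9 and 42.3 CPM after control siRNA, with SE 0.0847 around a log2 fold change of -0.23. Its edgeR adjusted p was 0.367, and 0.0132 when the replicate block was in the fit. Pgm2 was at -0.14 (SE 0.0927) and Pgm2l1 at 0.15, and neither passed in either fit.

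For breakdown in the cytosol, Pygb (gene ID 110078), the brain-type phosphorylase, had 108.2 and 117.7 CPM in the Lkb1 siRNA libraries and 104.7 and 124.3 CPM in the control siRNA libraries. The groups overlapped, with a log2 fold change of -0.020 (95% interval -0.22 to 0.18) and opposite directions in the 2 batches. Pygb carried 98.9 to 99.4% of the summed FPKM of the 3 phosphorylase genes. Pygl (gene ID 110095), the liver type, had 0 counts in 3 libraries and 1 count in control siRNA of batch 2. A count of 0 allows up to 0.172 and 0.162 CPM in the Lkb1 siRNA libraries (3 counts of the total in each library). Pygm, the muscle type, had 0.25 to 0.33 FPKM after Lkb1 siRNA and 0.19 to 0.20 FPKM after control siRNA. These values rest on 15 and 12 counts after Lkb1 siRNA and 9 and 10 after control siRNA. Pygm did not pass, at a log2 fold change of 0.55 (95% interval -0.40 to 1.51, edgeR adjusted p = 0.659).

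The log2 fold change of Phkg2, a catalytic subunit of phosphorylase kinase, was 0.12 with SE 0.111, and it did not pass (edgeR adjusted p = 0.726). Of the 7 tested genes of cytosolic breakdown none passed in either direction, without or with the block. With the block, 6.99% of all genes tested passed as lower and 6.59% as higher. At an unadjusted p under 0.05 the count was also 0 in both directions, against 5.53% lower and 5.61% higher of all genes tested.

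Of the regulators, Ppp1r3c (gene ID 53412), the subunit PTG that brings protein phosphatase 1 to glycogen, had 8 and 8 counts in the Lkb1 siRNA libraries and 9 and 13 counts in the control siRNA libraries. Both Lkb1 siRNA libraries (0.455 and 0.427 CPM) lay below both control siRNA libraries (0.491 and 0.674 CPM). The 95% Wilson intervals of all 4 libraries overlapped, from 0.219 to 1.15 CPM between them. Ppp1r3c did not pass the filter on low counts, so a difference between the groups was not tested. Epm2a (gene ID 13853), the glycogen phosphatase laforin, of which loss causes Lafora disease, had 1 count in control siRNA of batch 1 and 0 counts in the other 3 libraries. Nhlrc1, the ubiquitin ligase malin that acts with laforin, had 0.12 to 0.19 FPKM over the 4 libraries. Ppp1r3f and Ppp1r3e were the phosphatase subunits that entered the test, at log2 fold changes of 0.11 (SE 0.134) and 0.21 (SE 0.267). The kinases Gsk3a and Gsk3b, which phosphorylate glycogen synthase, were at -0.055 (SE 0.0697) and -0.033 (SE 0.0652), and Gsk3b became positive with limma on log2(FPKM + 1), at 0.018. None of these 4 genes passed, with edgeR adjusted p between 0.794 and 0.881.

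Of 6 genes of glucose entry and glucose 6-phosphate, Hk1, the hexokinase of most tissues, had 141.8 and 151.1 CPM after Lkb1 siRNA and 170.0 and 157.2 CPM after control siRNA and did not pass at -0.16 with SE 0.0725 on the log2 scale (edgeR adjusted p = 0.453, but 0.0143 in the blocked fit). The glucose transporter Slc2a3 was at -0.28 (SE 0.215, edgeR adjusted p = 0.662). Among other users of UDP-glucose, Ugdh, which oxidises UDP-glucose to UDP-glucuronate, was at -0.12 (SE 0.0675, edgeR adjusted p = 0.552).

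**Figure D4:**
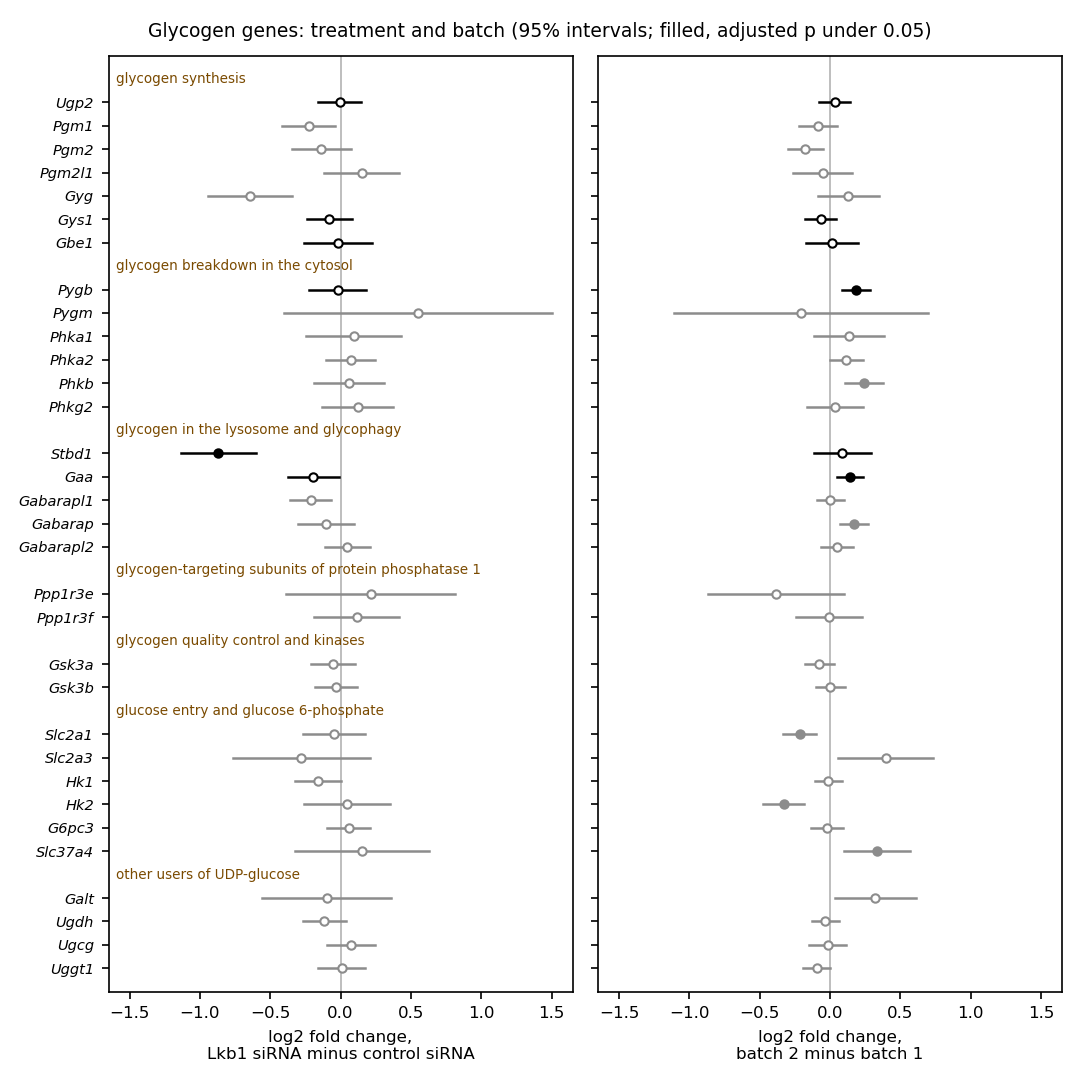
Log2 fold changes with 95% intervals of the tested glycogen genes that are reported here, Lkb1 siRNA minus control siRNA in the left panel and batch 2 minus batch 1 in the right panel, with the 6 tested members in black and filled points for an edgeR adjusted p under 0.05. Stbd1 at -0.87 is the filled point of the left panel, and Pygb and Gaa are the filled members of the right panel. The left panel is from the fit without the replicate block, and the right panel from the fit with a treatment term. Interval widths and filled points are therefore not comparable between the panels. With the replicate block, 7 genes of the wider list passed as lower between the treatments.

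The batches gave a comparison on which the genes were not chosen. With treatment as a term, 770 genes were higher in batch 2 than in batch 1 and 809 lower, 6.3% and 6.62% of the genes tested. Of the 6 tested members, 2 passed as higher in batch 2 and 0 as lower, and at an unadjusted p under 0.05 the counts were also 2 and 0, where 13.3% of all genes tested were higher and 12.8% lower. In 2 of the 6 (Pygb and Ugp2) both batch 2 libraries lay above both batch 1 libraries and in 0 below, against 21.3% and 20.7% of all genes tested. Pygb had 117.7 and 124.3 CPM in batch 2, against 108.2 and 104.7 CPM in batch 1, each with Lkb1 siRNA named first, and the batches did not overlap (log2 fold change 0.18, SE 0.0509, edgeR adjusted p = 0.00494). Gaa had 215.0 and 241.1 CPM in batch 2 and 190.5 and 222.8 CPM in batch 1, so that its batches overlapped unless compared within a treatment (log2 fold change 0.14, SE 0.0485, edgeR adjusted p = 0.03). Both calls were lost without the treatment term (adjusted p = 0.424 for Pygb and 0.627 for Gaa, edgeR), with DESeq2 (0.357 and 0.392) and with limma on log2(FPKM + 1) (0.122 and 0.125), and that of Gaa also with all genes of at least 1 count (0.0581, edgeR).

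Stbd1 was at 0.088 between the batches (SE 0.104, 95% interval -0.12 to 0.29, edgeR adjusted p = 0.65). Ugp2 was at 0.033, Gbe1 at 0.012 and Gys1 at -0.064, with edgeR adjusted p from 0.509 to 0.956. Of the 34 tested genes of the wider list, 5 passed as higher in batch 2 and 2 as lower. Over all genes tested these shares were 6.3% and 6.62%. In the wider list the higher genes were Pygb, Gaa, Phkb, Gabarap and Slc37a4, and the lower genes Slc2a1 and Hk2. No gene of the list passed without the treatment term, with DESeq2 or with limma on log2(FPKM + 1). DESeq2 gave an adjusted p to 3 of these 7. Phkb, the regulatory beta subunit of phosphorylase kinase, was at 0.24 (edgeR adjusted p = 0.00798). The hexokinase Hk2 was at -0.33 (3.39e-04) and the glucose transporter Slc2a1 at -0.22 (0.0066). Phkb, Hk2 and Slc2a1, like Pgm2, Pgm2l1, Pygm, Gys2, Nhlrc1, Gabarap and Gabarapl2 above, were picked after their values were seen.

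The genes whose levels over the 4 libraries were most like those of Stbd1 were found by Euclidean distance. It was taken between log2 CPM values centred on each gene's mean. The search covered 10094 tested genes with a mean of at least 5 CPM, with predicted and clone-named genes left out. The nearest was Mmp13, a collagenase, at a distance of 0.202, followed by Erbb3, a neuregulin receptor of neural crest and glia (0.219), Acot2, a mitochondrial acyl-CoA thioesterase (0.225), Gyg (0.233) and Atf5, a stress-induced transcription factor (0.242). Gyg was thus the fourth nearest of 10094 genes. Gabarapl1 was at rank 540 and Gaa at rank 653. In each of the 5 nearest genes both Lkb1 siRNA libraries lay below both control siRNA libraries, which the choice by distance from Stbd1 brings with it. Atf5 passed between the treatments (edgeR adjusted p = 0.0378), and Mmp13, Erbb3 and Acot2 passed with the replicate block (edgeR adjusted p at most 7.27e-06) and not without it (0.132 to 0.139). Log2 fold changes were -0.76 for Mmp13, -0.65 for Erbb3, -0.87 for Acot2, -0.64 for Gyg and -0.62 for Atf5. With 4 libraries of 2 groups, a short distance mainly says that 2 genes have a similar step between the treatments.

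**Figure D5:**
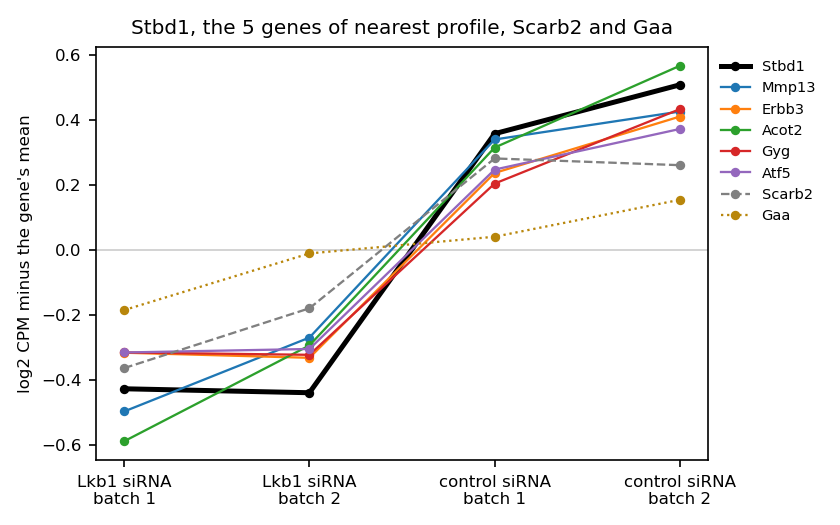
Log2 CPM minus the gene's own mean in the 4 libraries, for Stbd1 (thick black), the 5 genes of nearest profile, its genomic neighbour Scarb2 (dashed) and Gaa (dotted), where the lines join the libraries only to guide the eye. The nearest genes are low in both Lkb1 siRNA libraries and high in both control siRNA libraries, as Stbd1 is, and Gaa shows a smaller step with a difference between the batches.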

How the data were processed

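RNA-seq of 4 libraries was analysed, 2 of Lkb1 siRNA and 2 of control siRNA. Per the submitters' processing notes, HISAT2 2.0.4, Bowtie2 2.2.5, RSEM 1.2.8 and the build GRCm39 were used, with no role or order given, and the sources used here do not give the annotation release. The tables deposited by the authors hold, per the file headers, a read count for each gene and transcript that was treated as an estimated count, since 5.73 to 5.97% of the gene values are not whole. They also hold FPKM from the authors, a level per transcript length and library size. A doubled decimal point in 14 cells of the gene columns used and 31 of the transcript columns used was read as 1 point. The 16 other per-library columns of the tables (TPM and normalised counts) were not used.

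Counts were rounded and tested in edgeR 4.0.16 (R 4.3.3) with robust quasi-likelihood F-tests after TMM scaling. Its filter on low expression, at a minimum count of 10, kept 12222 genes. P-values were adjusted by Benjamini-Hochberg over all of them, with a threshold of 0.05. SE were derived from the F statistic. CPM use the TMM library sizes. DESeq2 1.42.0 and limma 3.58.1 were alternatives, and the procedure was tested on simulated data. Intervals and floors per library cover counting error only.

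Libraries with one number in their titles also carry one batch label, and this pairs them. Across genes, the 2 libraries of a batch deviated together from their group means (correlation 0.259). The fit without the block is given first. Nothing in the labels says that the libraries came from independent cultures, so p-values concern these libraries only. The edgeR tests share information on spread over genes. In the fits with batch and treatment together, a gene's p rests almost wholly on spread pooled over all genes. Such p-values, with the replicate block or between the batches, do not measure that gene's own spread. The common coefficient of variation was 3.15% with the block and 6.39% without it. The 9 members and all lists were chosen with earlier results of these data known. Named genes were the members, the genes of the wider list that passed, up to 2 of each sub-list with the smallest p and at least 2 CPM, Stk11, and the 5 genes of nearest profile. Other genes were named after their values were seen. Some genes of the wider list enter the counts and are not reported here by name.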

Additional observations from a re-analysis of the deposited data

How the results depend on the processing

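Stbd1 kept its sign in all 11 alternatives to the treatment test. It did not pass with library size in place of TMM (log2 fold change -0.84), with genes of 5 CPM or more (-0.87) or with limma at a pseudocount of 1 (-0.74) or 0.1 (-0.82) on FPKM, and it passed in each fit that left out 1 library (-0.94 to -0.79). In those fits the lone library of a group is assumed to vary like the other group. For all genes, the main test called 4 higher and 6 lower, against 806 and 854 with the replicate block, 2 and 1 with library size, 18 and 31 with DESeq2, 13 and 32 with at least 1 count in any library, 2 and 2 with genes of 5 CPM or more and 0 and 0 with limma at either pseudocount, where 892 and 421 genes were under an unadjusted p of 0.05 with log2(FPKM + 1). Leaving out 1 library gave 24 (without Lkb1 siRNA replicate 2) to 136 (without control siRNA replicate 2) higher and 42 to 143 (without control siRNA replicate 1) lower genes. In the wider glycogen list, where 1 gene passed as lower, 7 did with the replicate block and 0 with library size, with genes of 5 CPM or more or with limma at either pseudocount; leaving out 1 library gave 1 to 2. Among the genes of the wider list that the text names, the block changed the calls given beside them and no other. Between the batches, 770 and 809 genes passed, against 0 and 0 without the treatment term, 48 and 67 with DESeq2, which gave an adjusted p to 3218 of the 12222 genes, and 39 and 16 with limma on log2(FPKM + 1); in the wider list 5 and 2 passed, against 0 and 0 in each of these 3 fits, where DESeq2 gave an adjusted p to 9 of the 34 genes and to 3 of these 7. Leaving out 1 library, which also meant leaving out the treatment term, gave 41 to 118 higher and 16 to 118 lower genes and 0 in the wider list. There Pygb was at 0.14 to 0.22 and Gaa at 0.03 to 0.26, and neither passed. The cause of these changes was not tested. With 2 libraries in a group and 188 to 395 counts for Stbd1, intervals of the less abundant genes are wide, and Ppp1r3c, Epm2a and Pygl are too low for a comparison.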

Other observations

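The genes next to Stbd1 on chromosome 5 in the RefSeq gene table (GRCm38) were looked up for their position, and their values were seen before this choice was written. Fam47e, next to Stbd1 on one side, had 1 count in control siRNA of batch 1 and 0 counts in the other 3 libraries. Ccdc158, on the other side, was not found by that symbol in the authors' gene table. Scarb2, the gene beyond Fam47e, encodes the lysosomal membrane protein LIMP-2, which carries glucocerebrosidase to lysosomes. Scarb2 had 44.4 and 50.45 CPM in the Lkb1 siRNA libraries, against 69.5 and 68.5 CPM in the control siRNA libraries, with no overlap. Its log2 fold change was -0.54 (SE 0.0817) and it did not pass (edgeR adjusted p = 0.07, and 1.3e-15 with the replicate block). Shroom3, the gene beyond Ccdc158, encodes an actin-binding protein and had 34.5 and 35.1 CPM after Lkb1 siRNA and 29.9 and 32.5 CPM after control siRNA (log2 fold change 0.16, SE 0.0876, edgeR adjusted p = 0.536).

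Slc37a4, the glucose 6-phosphate transporter of the endoplasmic reticulum, had 11.8 and 11.5 CPM in the Lkb1 siRNA libraries and 7.8 and 13.1 CPM in the control siRNA libraries, so that control siRNA of batch 1 stood apart from the other 3. Between the batches it was at a log2 fold change of 0.33 (edgeR adjusted p = 0.0426).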
